A study of Mus musculus with 369 samples.

Results

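Interferon-stimulated genes were followed here as a list of 37 genes: the receptor chains for type I interferon, transcription factors of the response, sensors of viral RNA, and the antiviral proteins made in response. The members were chosen by name, and all 37 symbols were found among the 23337 genes of the count table. The study sorted single microglia from the whole brain of male C57BL6J mice at postnatal day 7, either wild type or Trem2 knockout, and made one full-length cDNA library per cell (Smart-seq2). Cells were taken from the CD45low CD11b+ gate without further selection ("unselected") or had to be positive for the surface proteins Gpnmb and Clec7a as well ("gated"). In all, 334 cells passed the 3 quality criteria of the labels and 35 did not. Those that passed were 78 unselected and 90 gated cells in wild type, and 90 and 76 in knockout; 4 values listed without labels follow this order. Each group lay on 1 plate and the labels name no animal, so each group is 1 sample. Differences are therefore given as values without a test, and what belongs to a plate cannot be told apart from what belongs to its genotype or gate. The labels do not describe the knockout allele.

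Type I interferons bind a receptor with the chains IFNAR1 and IFNAR2, whose kinases JAK1 and TYK2 phosphorylate transcription factors such as STAT2. These join IRF9 and bind a short DNA element, the interferon-stimulated response element, in front of a large set of antiviral genes. Microglia carry this receptor, and a small class of microglia rich in interferon-stimulated transcripts is known from development, ageing and disease. Bst2 and the receptor chains are known to be present in resting myeloid cells, whereas transcripts such as Ifit1, Mx1 and Isg15 are usually scarce without a signal.

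The response element is what many of these genes share outside the expression data, so its letters are shown first. It was searched as 2 copies of GAAA with 2 bases between them, on either strand, in RefSeq promoter windows of the GRCm38.p6 build that reach from 250 bases before to 50 bases after the gene start. Windows were found for 29 of the 37 members. The element was present in 15 of these 29 (51.7%), against 3.99% of the 27025 genes with a window. The 15 were Ifit1, Ifit3, Isg15, Stat2, Oas1a, Oas3, Rsad2, Ifitm2, Ifitm3, Gbp2, Gbp3, Bst2, Ifih1, Ddx58 and Eif2ak2. Below, 7 of them are written 5′ to 3′ on the strand of the gene, with the matched bases in capitals. Ifit1, Ifit3, Oas1a and Gbp3 are among the genes of the rare cells described at the end, Isg15 had 3 overlapping matches but hardly any counts, and Ifitm2 and Bst2 were detected widely. A match on the other strand reads TTTC in place of GAAA.
Ifit1 (chr19:34640765-34640833, + strand): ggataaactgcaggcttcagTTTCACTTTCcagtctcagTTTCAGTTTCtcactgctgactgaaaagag
Ifit3 (chr19:34583353-34583436, + strand): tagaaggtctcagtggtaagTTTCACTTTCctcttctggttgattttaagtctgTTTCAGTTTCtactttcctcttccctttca
Isg15 (chr4:156200855-156200916, - strand): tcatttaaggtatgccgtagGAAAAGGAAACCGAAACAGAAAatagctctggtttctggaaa
Oas1a (chr5:120907526-120907565, - strand): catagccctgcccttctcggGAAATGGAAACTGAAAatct
Gbp3 (chr3:142559979-142560034, + strand): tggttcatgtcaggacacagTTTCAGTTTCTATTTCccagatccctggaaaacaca
Ifitm2 (chr7:140955978-140956027, - strand): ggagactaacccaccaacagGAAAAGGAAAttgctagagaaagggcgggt
Bst2 (chr8:71537567-71537622, - strand): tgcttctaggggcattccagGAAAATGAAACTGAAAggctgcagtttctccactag

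Among the members, 22 are products of the response (the Ifit, Oas and Mx genes, Isg15, Usp18, Gbp2, Gbp3, Rsad2, Cmpk2, Rtp4, Xaf1, Ifi27l2a, Ifi44, Herc6 and Irf7). They are called effectors here. The other 15 are receptors, transducers, sensors and genes known from resting myeloid cells. The element was present in 8 of 16 effectors with a window (50.0%) and in 7 of 13 others (53.8%). A gamma-activated site, searched as TTC and GAA with 3 bases between them, was present in 2 of 16 effectors (12.5%), in 7 of 13 others (53.8%) and in 9.55% of all genes. These matches describe letters in a window, and nothing was measured at them.

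Gene counts per passing cell ranged from 157653 to 1051282. The median number of detected genes per cell was 2607.5 (unselected) and 3162.5 (gated) in wild type, and 2184 and 3995 in knockout, so shares of cells with a gene were taken after thinning each cell to 100000 gene counts. Trem2 stood at 1115 and 1604 CPM (gene counts per 1000000) in the wild-type groups and at 229 and 413 CPM in the knockout groups. Gpnmb stood at 216 and 85.2 CPM in unselected and at 1697 and 4233 CPM in gated cells (wild type, then knockout), and Clec7a at 53.5 and 40.9 against 346 and 594 CPM. Markers of microglia were detected in a median of 94.4% to 97.4% of the cells of a group. Markers of border-associated macrophages, the macrophages of vessels and meninges, summed to 843 and 902 CPM in unselected and to 2108 and 2089 CPM in gated cells, and markers of monocytes to at most 5.15 CPM in any group. In 3 gated cells (2 knockout, 1 wild type) 9 of the 10 border markers but 3 or 4 of the 9 microglia markers were detected. Some wells shared rare genes: 131 of 13863 pairs of cells on a plate passed a similarity cut over genes seen in few cells, and 42.0% of those pairs sat in consecutive wells, against 2.16% of all pairs. Keeping 1 cell per set of such wells, the one with the most gene counts, left 223 cells. For some of the differences described below, values without these cells or wells are given.

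Most members were at low levels in every group. Levels were computed from counts summed over the cells of a group, in CPM, with exact Poisson intervals (95%) in brackets that cover counting error only. Of the 37 members, 19 reached 20 CPM in at least 1 group, 12 peaked between 5 and 20 CPM, and 6 stayed below 5 CPM throughout (Cmpk2, Ifi44, Irf7, Isg15, Mx1 and Oasl1). All members together summed to 754 CPM (unselected) and 1058 (gated) in wild type, and 936 and 878 in knockout. The 22 effectors made up 81.7, 169, 132 and 145 CPM of these sums, so most of the summed counts came from the 15 other genes. Oasl1 had no counts in any group, and 9 members were at 0 in wild-type unselected cells, against 5, 5 and 4 in the other groups. A member's level often rested on few cells: in wild-type unselected cells 13 members drew 50% or more of their counts from 1 cell, and 9, 14 and 7 did so in the other groups.

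**Figure D1:**
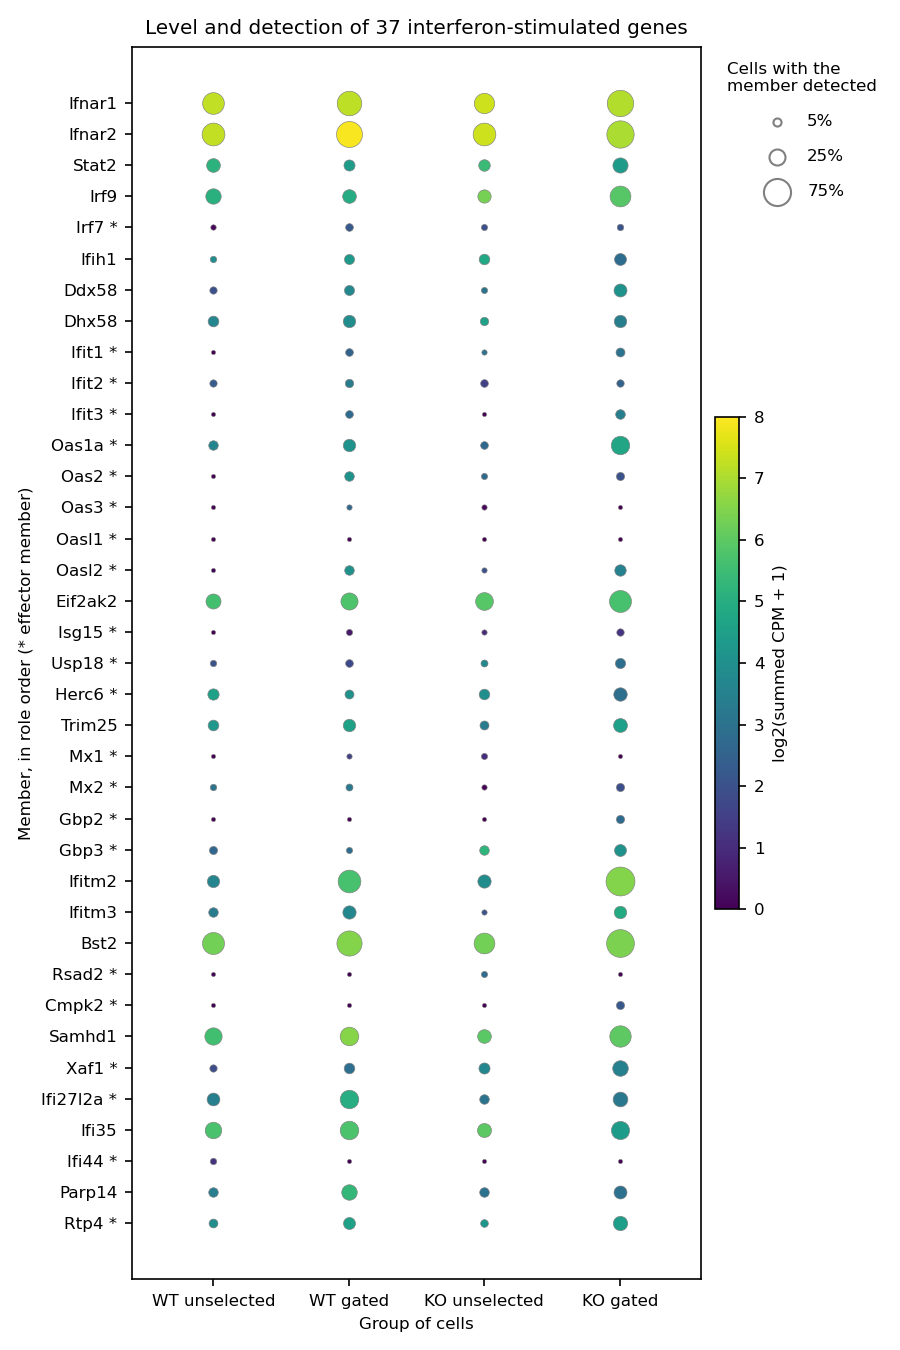
Level and detection of the 37 members in the 4 groups (WT, wild type; KO, knockout), in order of their roles, with effectors marked by an asterisk. Colour gives the level as log2(CPM + 1) from summed counts, and a larger circle a larger share of cells with the member detected after thinning; Ifnar1 and Ifnar2 stand above 100 CPM in every group, Bst2 at 77.9 to 90.6 CPM, and Ifitm2 is detected in 52.2% and 85.5% of the gated cells.

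Both receptor chains stood above 100 CPM in every group. Ifnar1 (ENSMUSG00000022967, chr16:91485238-91507441, + strand) stood at 150 CPM [147 to 154] (unselected) and 145 [142 to 148] (gated) in wild type, and 167 [164 to 170] and 135 [132 to 138] in knockout. Per cell its level ran from 0 to medians of 7.94, 40.0, 0.58 and 83.7 CPM and to maxima of 1162, 1000, 2396 and 1242 CPM, so the groups overlapped widely. Ifnar2, on the same chromosome (chr16:91372783-91405589), stood at 154 CPM [150 to 158] (unselected) and 240 [236 to 244] (gated) in wild type, and 167 [164 to 171] and 125 [122 to 128] in knockout. It was detected in 52.6%, 68.9%, 52.2% and 76.3% of cells. Among cells with 2000 to 4000 detected genes the gated shares were 69.2% in wild type and 65.7% in knockout. Neither chain was past 2-fold in any comparison. Per kilobase of exon, Bst2 ranked first in 3 groups (86.2, 100.3 and 86.3 CPM per kilobase), and Ifitm2 ranked first in knockout gated cells (137 CPM per kilobase).

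Of the transcription factors, Irf9 and Stat2 were present in every group, and Irf7 did not pass 3.65 CPM. IRF9 is the DNA-binding part of the complex with STAT2. Irf9 (chr14:55603571-55610030) stood at 32.8 CPM (unselected) and 29.5 (gated) in wild type, and 78.9 and 58.3 in knockout. Irf9 was detected in 23.1%, 17.8%, 16.7% and 43.4% of cells, and among cells with 2000 to 4000 detected genes in 13.5%, 17.3%, 16.7% and 20.0%. The level was highest in unselected knockout cells, and the share was not. Irf9 overlaps Rnf31 on the same strand and Irf7 overlaps Phrf1 on the opposite one, and no source used here says whether the counting used strand, so these levels are uncertain. Ifnar2, Herc6, Ifitm2, Parp14 and Rtp4 also overlap another annotated gene on the same strand. Oasl1, Usp18, Gbp2, Ifi35 and Eif2ak2 do so on the opposite strand. The levels of these members are uncertain in the same way. Stat2, the partner of IRF9, stood at 34.3 and 41.8 CPM in wild-type and knockout unselected cells and at 19.9 CPM in both gated groups. Irf7, which amplifies interferon production, was at 0.10, 3.65, 2.92 and 3.35 CPM in the order of groups given at the start.

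The 3 cytoplasmic RNA sensors were low and were carried by few cells. Ifih1 (MDA5) stood at 14.3 CPM (unselected) and 18.5 (gated) in wild type, and 26.9 and 6.14 in knockout. It was detected in 2.56%, 8.89%, 10.0% and 13.2% of cells, an order that did not hold with 1 cell per set of wells (11.8% in gated wild-type and 10.2% in gated knockout cells). Dhx58 (LGP2), which overlaps Dhx58os on the opposite strand, had 11.8, 13.8, 22.5 and 9.61 CPM in that order, and 51.3% of its counts in knockout unselected cells came from 1 cell. Ddx58 (RIG-I) had 2.93, 12.5, 7.52 and 15.5 CPM, with 93.9% and 88.6% of the counts of the 2 unselected groups in 1 cell each.

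The Ifit genes, whose proteins bind viral RNA, were close to absent outside a few cells. Ifit1 was at 0 in wild-type unselected cells, and its 388 counts in knockout unselected cells (6.82 CPM) all came from the cell in well F1. In gated cells it stood at 4.69 CPM in wild type and 7.35 in knockout, with 68.3% and 63.9% of the counts in 1 cell. With 1 cell per set of wells, Ifit1 was detected in 0% of wild-type gated and 6.78% of knockout gated cells. Ifit2 ranged from 1.93 to 8.80 CPM. Ifit3 had no counts in either unselected group, and stood at 5.77 CPM in wild-type gated and 9.65 in knockout gated cells. Reads could be split or lost between these close paralogs, so single members of the Ifit family are uncertain.

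Oas proteins make a second messenger that switches on an RNA-degrading enzyme, and PKR, the product of Eif2ak2, shuts down translation. Oas1a (chr5:120896256-120907521, - strand) was the most widely detected of the Oas genes, at 11.4 CPM (unselected) and 15.9 (gated) in wild type, and 5.55 and 25.3 in knockout. It was detected in 7.69%, 14.4%, 4.44% and 34.2% of cells. With 1 cell kept per set of wells the shares were 7.69%, 13.7%, 4.05% and 27.1%. Among cells with 2000 to 4000 detected genes they were 10.8%, 7.69%, 0% and 34.3%. There the gated share was below the unselected one in wild type and above it in knockout. Oas2 stood at 0, 15.7, 5.54 and 3.05 CPM in the same order, and 98.4% of its counts in knockout unselected cells came from 1 cell. Oasl2 stood at 0.03, 15.1, 2.92 and 10.5 CPM. All of the 5.17 CPM of Oas3 in wild-type gated cells came from 1 cell. Eif2ak2 was steady by level, at 48, 53.5, 58.3 and 50.3 CPM. Oas1a has near-identical copies, so its counts are uncertain.

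The ISG15 system attaches a ubiquitin-like protein to other proteins, and USP18 removes it and also damps the receptor. Isg15 itself, with 3 overlapping response elements in front of it, was at 0 in wild-type unselected cells and reached at most 1.33 CPM, in knockout gated cells. Usp18 stood at 3.13, 2.38, 12.4 and 6.48 CPM, with 55.5% to 86.1% of the counts of a group in 1 cell. Trim25, a ubiquitin ligase that activates RIG-I, had 17.9, 22.5, 8.84 and 22 CPM. Herc6, which attaches ISG15 in mice, had 22.7, 15.1, 14.3 and 6.46 CPM.

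Of the interferon-induced GTPases, Gbp3 was the one above 20 CPM in any group. It stood at 5.26 CPM (unselected) and 6.05 (gated) in wild type, and 35.6 and 15.6 in knockout. In knockout unselected cells 57.8% of those counts came from 1 cell, and 15.2 CPM remained without it. Gbp2 was at 0 in 3 groups and at 5.84 CPM in knockout gated cells, from 4 cells after thinning. Mx1 did not pass 1.95 CPM, and Mx2, annotated as a polymorphic pseudogene, did not pass 8.57 CPM.

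Ifitm2 was higher in gated cells in both genotypes, by level and by share of cells. IFITM proteins sit in membranes and block the entry of viruses. Ifitm2 (ENSMUSG00000060591, chr7:140954837-140955987, - strand) stood at 11.4 CPM [10.4 to 12.5] (unselected) and 49.8 [48 to 51.8] (gated) in wild type, and 13.6 [12.6 to 14.6] and 89.9 [87.3 to 92.5] in knockout. Per cell it ran from 0 to medians of 0, 13.6, 0 and 57.8 CPM and to maxima of 284, 339, 236 and 1164 CPM. It was detected in 14.1%, 52.2%, 16.7% and 85.5% of cells, the last being 65 of 76. Gated cells thus exceeded unselected cells by 38.1 percentage points in wild type and 68.9 in knockout, where the median difference over all measured genes was 0.43 and 13.2 points. Both gated shares also stood above both unselected shares among cells with 2000 to 4000 detected genes (13.5%, 55.8%, 14.3% and 85.7%) and with 1 cell per set of wells (20.5%, 49%, 14.9% and 83.1%). Without the 3 cells rich in border markers its level was 47.6 CPM in wild-type gated and 69.9 in knockout gated cells.

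Its neighbour Ifitm3 (chr7:141009586-141010770) was past 2-fold higher in gated cells in knockout only, and 2 cells held most of those counts. It stood at 9.01 CPM (unselected) and 11.9 (gated) in wild type, and 2.97 and 27.9 in knockout. Ifitm3 was detected in 7.69%, 16.7%, 1.11% and 14.5% of cells, so gated shares were above unselected ones in both genotypes. The median gate difference over all measured genes was 0.43 points in wild type and 13.2 in knockout. The 2 knockout gated cells rich in border markers, in wells C12 and G3, had 1170 and 867 CPM of Ifitm3 and held 63.2% and 16.6% of the group's counts. Without the 3 border-marker cells Ifitm3 was at 5.74 CPM in knockout gated and 10.7 in wild-type gated cells, so the order of these groups turned. All of its counts in knockout unselected cells came from the cell in well F1. Ifitm2 and Ifitm3 are close paralogs, so counts could be split between them.

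Bst2 (tetherin), which holds budding viruses at the cell surface, had nearly the same level in every group. It stood at 77.9 CPM [75.1 to 80.7] (unselected) and 90.6 [88.1 to 93.2] (gated) in wild type, and 77.9 [75.6 to 80.2] and 84.1 [81.6 to 86.7] in knockout. The share of cells with Bst2 was 48.7%, 64.4%, 43.3% and 78.9% in the same order. Bst2 is also 1 of 7 listed markers of plasmacytoid dendritic cells, which summed to 2589, 1193, 1971 and 613 CPM. Of these sums, 2435, 936, 1748 and 425 CPM came from Siglech, which is on the list of microglia markers as well, and Ly6d and Klk1 were at 0 in every group. The part of such cells in the Bst2 level was not tested.

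**Figure D2:**
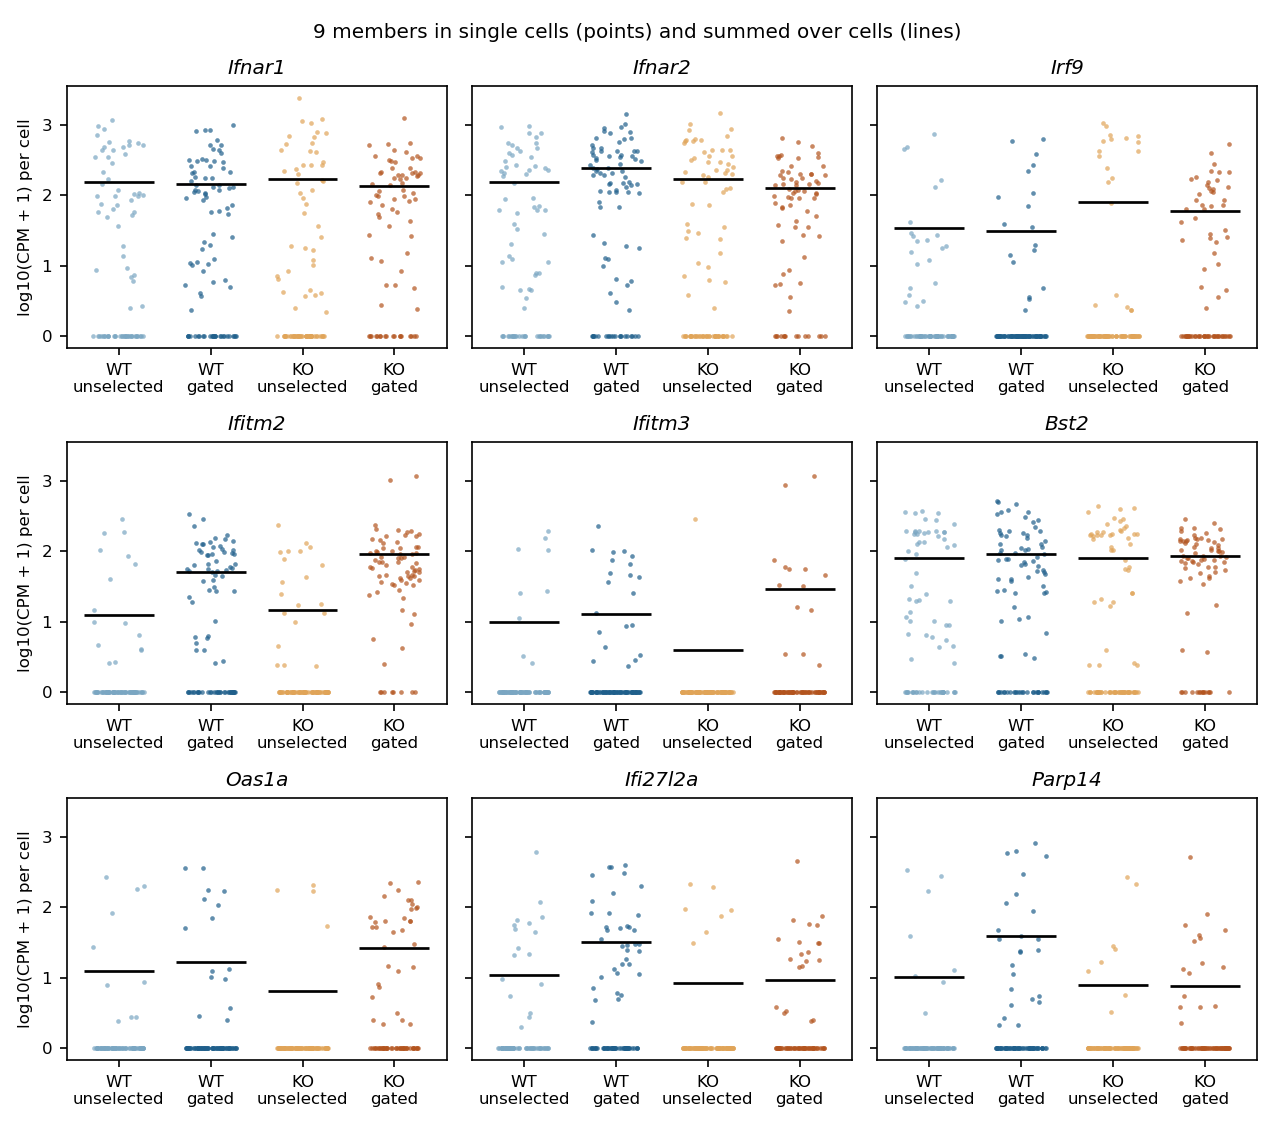
Levels of 9 members in single cells, as log10(CPM + 1) before thinning, with 1 point per passing cell in each of the 4 groups; the black line is the level from the summed counts of the group and is no error bar. Ifitm2 is above 0 in most gated cells, and 2 knockout gated cells stand far above the others for Ifitm3 (1170 and 867 CPM).

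Among the enzymes of nucleotide metabolism, Samhd1 was the only one above 6 CPM. SAMHD1 breaks down the building blocks of viral DNA. It stood at 46.8 CPM (unselected) and 91.6 (gated) in wild type, and 61 and 63.1 in knockout. Rsad2 (viperin) reached 5.90 CPM in knockout unselected cells, with 99.4% of the counts in 1 cell, and Cmpk2, its neighbour in the genome, reached 3.56 CPM in knockout gated cells.

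Of the remaining members, Ifi27l2a and Parp14 were highest in wild-type gated cells. Ifi27l2a, which encodes a small hydrophobic protein, stood at 9.75 CPM (unselected) and 30.9 (gated) in wild type, and 7.33 and 8.28 in knockout. It was detected in 15.4%, 34.4%, 7.78% and 21.1% of cells, and in 7.69%, 27.5%, 9.46% and 15.3% with 1 cell per set of wells. Parp14, an ADP-ribosyltransferase, stood at 9.34, 38.1, 6.94 and 6.69 CPM in that order. It was detected in 7.69%, 23.3%, 7.78% and 15.8% of cells. Ifi35, a partner of the adaptor NMI, had 51.4, 52.2, 62.4 and 20.1 CPM, lowest in knockout gated cells. Rtp4, which binds RNA of viruses, was level at 14.3, 22.2, 17.4 and 20.4 CPM. Xaf1, which promotes cell death, reached 11.7 CPM, and Ifi44 reached 1.23 CPM.

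The first comparison asked how gated cells differed from unselected cells in wild type. Of 27 members at 5 CPM or more in either group, 8 were higher in gated cells by 2-fold or more (summed CPM plus 1 CPM, with the same direction by the mean per cell), and none was lower by that rule. The 8 were Ifitm2, Ifi27l2a, Parp14, Ddx58, Oas2, Oasl2, Oas3 and Ifit3. Over all 9879 genes measured, 14.3% were higher and 20.5% lower. The median member stood 0.45 higher in gated cells on the log2 scale, beside a median of -0.16 over all genes. Ifitm2 was 4.37-fold higher (log2 difference 2.04), Parp14 4.08-fold (1.92) and Ifi27l2a 3.17-fold (1.57). Oas2 had no counts in unselected cells and was at least 204-fold higher in summed counts, with 3 counts over the group taken as the floor here and below. Such folds cover counting error only and do not bound the difference between groups, since few cells can carry the counts. Oas2 was detected in 7.78% of gated and 0% of unselected cells. Oasl2, with 1 count in unselected cells, differed by 3.97 on the log2 scale [3.722 to 4.102]. Without the cell with the most counts, 6 of the 8 were still past the rule. Of all genes measured, 10.8% were higher and 15.1% lower both with and without that cell. Ifit3 stayed past 2-fold (log2 1.99) but at 2.97 CPM, under the minimum, and Oas3 had no counts left, nor any with 1 cell per set of wells.

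In knockout, the gate split the members evenly, with 7 of 28 higher and 7 lower in gated cells. Over 9882 genes, 11.6% were higher and 22.6% lower, and the median was -0.29, beside -0.11 over the members. Higher were Ifitm2 (6.62-fold, log2 2.64), Ifitm3 (log2 2.86), Oas1a (2.01), Oasl2 (1.55), Trim25 (1.22), Ifit3 (at least 183-fold) and Gbp2 (at least 111-fold). Lower were Ifih1 (log2 -1.97), Ifi35 (-1.58), Dhx58 (-1.15), Gbp3 (-1.14), Herc6 (-1.04), Stat2 (-1.03) and Rsad2 (at least 99.4-fold). Without the cell with the most counts, 6 were still higher and 3 still lower (Ifih1, Ifi35 and Stat2), and Gbp2 stayed past 2-fold (log2 2.08) but under the minimum level. Of all genes measured, 9.62% were higher and 15.8% lower both with and without that cell. With 1 cell per set of wells, Stat2 was at -0.77 and Gbp3 at -0.50. Ifitm3 was past 2-fold in the full group but not without the border-marker cells, where its log2 difference was 0.76, whereas Ifitm2 kept 2.28 (1.97 in wild type). Ifit3, Oasl2 and Ifitm2 were higher in gated cells in both genotypes. Both gate comparisons use separate plates, and whether they differ was not tested.

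The lower calls in knockout depended on scaling. Gene counts per spike-in count had a median of 53.7 in knockout gated and 18.1 in knockout unselected cells, and 39.8 and 24.9 in the wild-type groups. Scaled to spike-ins, the median over all genes moved from -0.29 to 1.06 for the gate in knockout and from -0.16 to 0.32 in wild type. On that scale 20 members were higher and none lower in knockout, where 52.6% of all genes were higher and 3.80% lower, and 14 and none in wild type, beside 24.3% and 12.2%. Stat2, Gbp3, Dhx58 and Herc6 then turned to small differences in the other direction (log2 0.26, 0.14, 0.10 and 0.17), all below the all-gene median, while Ifi35, Ifih1 and Rsad2 stayed lower. With TMM factors or median-ratio size factors the split in knockout was 9 higher and 3 lower, and 11 and 0 in wild type. Of all genes in knockout, 15.8% were then higher and 15.9% lower with TMM factors, and 15.4% and 16.3% with size factors. In wild type these shares were 17.5% and 16.8% with TMM factors, and 17.1% and 17.4% with size factors.

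The next comparison asked how knockout differed from wild type in unselected cells. Of 26 members measured, 8 were higher in knockout and 2 lower, beside 16.1% higher and 13.2% lower over 9929 genes. The member median was 0.27, and 0.07 over all genes. Higher were Irf9 (2.41-fold, log2 1.24), Gbp3 (2.55), Xaf1 (1.78), Usp18 (1.70), Ddx58 (1.12), Ifit1 (at least 88.6-fold), Oas2 (at least 71.9-fold) and Rsad2 (2.75 [2.46 to 2.92], 1 count in wild type). Mx2 (-3.01 [-3.19 to -2.75], 1 count in knockout) and Ifitm3 (-1.33) were lower. Without the cell with the most counts, Ifit1, Oas2, Rsad2, Ddx58 and Mx2 were no longer past 2-fold. Irf9, Xaf1 and Gbp3 were still higher and Ifitm3 lower, and Usp18 stayed past 2-fold (log2 2.02) with a level of 4.84 CPM, under the minimum. With 1 cell per set of wells, the Ddx58 difference was 0.67. Scaled to spike-ins, 3 members were higher and 5 lower, beside 8.05% and 23.3% of all genes and an all-gene median of -0.44.

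In gated cells, 4 of 30 members were higher in knockout and 8 lower. Over 9659 genes, 10.5% were higher and 12% lower, and the medians were -0.10 over the members and -0.02 over all genes. Parp14 was 5.69-fold lower in knockout (log2 -2.35), Ifi27l2a 3.73-fold (-1.78), Ifi35 2.59-fold (-1.33), and Oas2 (-2.04), Ifih1 (-1.45), Mx2 (-1.33), Herc6 (-1.11) and Oas3 (at least 87-fold) were lower as well. Parp14, Ifi27l2a, Ifi35, Oas2 and Ifih1 were still lower without the cell with the most counts. Gbp3 (1.24), Ifitm3 (1.16), Usp18 (1.14) and Gbp2 (at least 105-fold) were higher. Without that cell Gbp3 was still higher, Gbp2 stayed past 2-fold (log2 2.08) at 3.21 CPM, under the minimum, and Ifitm3 (0.15) and Usp18 (0.50) were not past 2-fold. Of all genes measured, 8.34% were higher and 7.46% lower both with and without that cell. With 1 cell per set of wells, Gbp3 was at 0.14 and Oas3 had no counts in either group. Without the 3 border-marker cells the Ifitm3 difference was -0.80. Scaled to spike-ins, 9 members were higher and 6 lower, beside 20.0% and 8.14% of all genes and an all-gene median of 0.36.

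**Figure D3:**
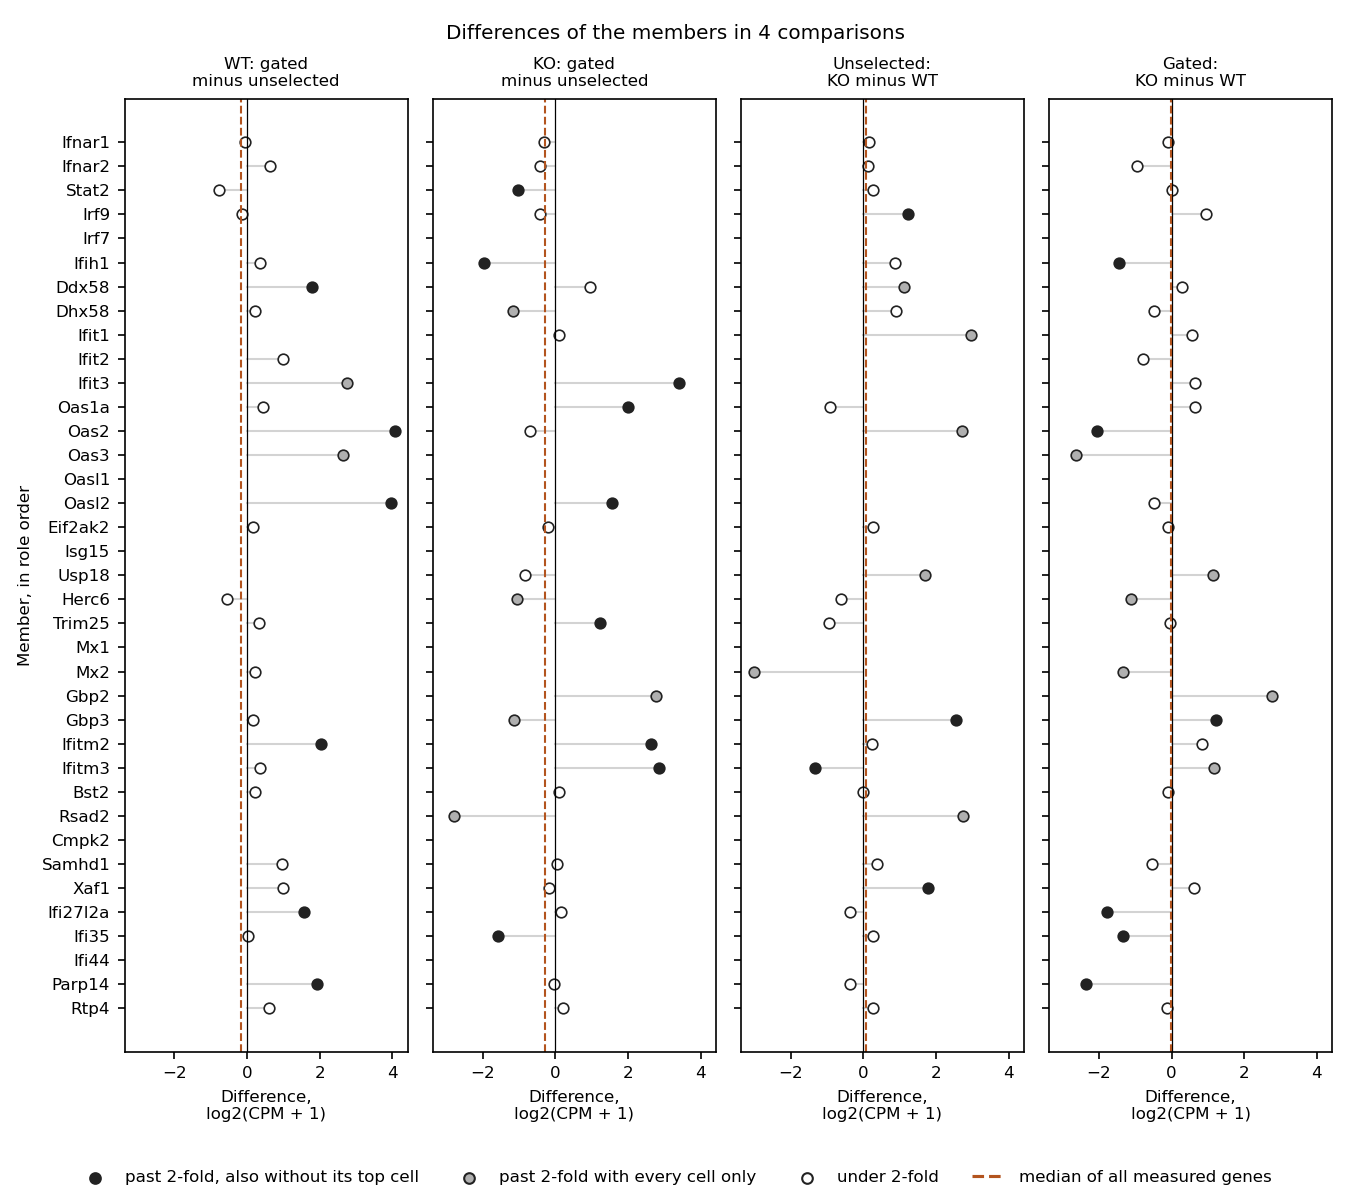
Log2 difference of each member measured, on summed CPM plus 1 CPM, in the 4 comparisons. Black circles are past 2-fold with and without the cell with the most counts, grey circles with every cell included, and open circles are under 2-fold; the dashed line is the median of all measured genes, and Ifitm2 stands at 2.04 and 2.64 in the gate comparisons.

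Other genes of the pathway were read from a wider list, of which 118 of 120 symbols were in the table. No counts were found for any of the 21 interferon genes on the list in any group. The receptor kinases Jak1 (181, 159, 220 and 120 CPM) and Tyk2 (53.2, 35.7, 33.9 and 43.4 CPM) were present throughout, and neither was past 2-fold. By gate, 6 of 67 listed genes were higher and 13 lower in wild type, beside 14.3% and 20.5% of all genes, and 9 of 68 were higher and 12 lower in knockout, beside 11.6% and 22.6%. By genotype, 6 of 67 were higher and 9 lower in unselected cells, beside 16.1% and 13.2% of all genes, and 9 of 67 were higher and 4 lower in gated cells, beside 10.5% and 12%.

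The largest single differences on the wider list were in genes of few cells. In wild type, Socs3, an inhibitor of cytokine receptors, stood at 29.2 CPM in unselected and 0 in gated cells, and Slfn8 at 48.4 and 0.80 CPM. Ifi47, an interferon-induced GTPase, stood at 20.8 CPM in wild-type unselected cells, at 0 in wild-type gated and knockout unselected cells, and at 7.19 in knockout gated cells. Cd274 (PD-L1) stood at 13.6 CPM in gated knockout cells, 18.4% of which had it, and at 0.30 CPM in the unselected ones. Ifi204, a DNA sensor, was at 0 in both unselected groups and at 9.15 and 11.7 CPM in the gated ones.

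Few cells held several effectors at once. After thinning, no effector was detected in 43 of 78 unselected and 32 of 90 gated cells in wild type, and in 53 of 90 and 21 of 76 in knockout. At least 3 were detected in 5, 13, 6 and 17 cells. At least 5 were detected in 0, 5, 1 and 8 cells, which is 0% [0 to 4.62] (0 of 78; 3 cells of 78 would be 3.85%), 5.56% [1.83 to 12.5], 1.11% [0.0281 to 6.04] and 10.5% [4.66 to 19.7] with exact binomial intervals (95%). The highest number in a cell was 3, 7, 7 and 14. The intervals cover counting error only, and with 1 plate a group the order of the shares is a description.

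**Figure D4:**
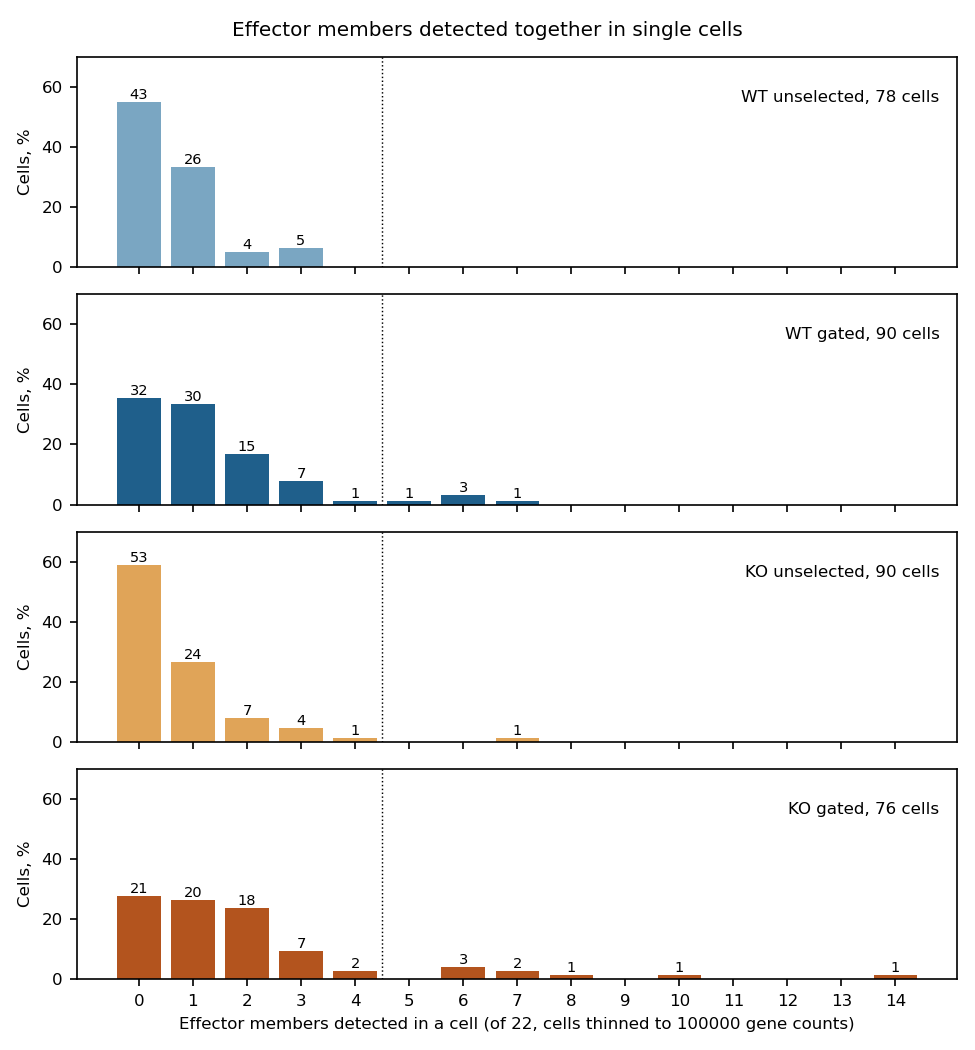
Share of the cells of each group (in percent, with the number of cells above each bar) by the number of the 22 effectors detected after thinning to 100000 gene counts. The dotted line marks 5 effectors, which 0, 5, 1 and 8 cells reached, and 1 knockout gated cell held 14.

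Cells with more detected genes tended to hold more effectors. Spearman's rho between the number of effectors and the number of detected genes was 0.31, 0.36, 0.41 and 0.41 within the 4 groups, over 78, 90, 90 and 76 cells that share a plate. Among cells with 2000 to 4000 detected genes, 5 or more effectors were present in 0 of 37, 1 of 52, 0 of 42 and 2 of 35 cells. With 1 cell per set of wells the counts were 0 of 39, 1 of 51, 1 of 74 and 5 of 59. In wild-type gated cells this rule left out B3, D8, D9 and F1, since another well of each set had more gene counts. The well paired with B3, B4, had no counts of Ifit1, Ifit2, Oasl2 or Rtp4. The count of 1 thus depends on which cell of a set is kept, and whether wells shared effectors was not tested. Without the border-marker cells they were 0, 5, 1 and 7.

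The 14 cells with 5 or more effectors differed in the number and level of their effectors. In knockout gated cells, well A9 held 14 effectors. The highest were Rtp4 at 433 CPM, Ifit1 at 325, Usp18 at 317 and Ifit3 at 304. Next came Oas1a at 225, Oasl2 at 207, Cmpk2 at 166 and Irf7 at 137. The lowest were Isg15 at 9.59 CPM, Mx2 at 21.9, Herc6 at 28.8 and Ifi27l2a at 34.3. This cell had 3480 detected genes and 8 of 9 microglia markers. Well B4 held 10 effectors, led by Gbp3 at 364 CPM, Ifit2 at 237, Oasl2 at 205, Rtp4 at 199 and Ifit1 at 181, with all 9 microglia markers. These 2 cells held more effectors than any other of the 334.

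Some other cells of the knockout gated group had most of their effectors at low levels. Wells A10, B12, C2 and D7 had 7477 to 8127 detected genes, near the top of the range. The cell in C2 had 8 effectors that summed to 79.7 CPM, beside 2390 CPM in A9. The effectors of A10 summed to 251 CPM, with Oas1a at 110, and those of D7 to 127 CPM, with Herc6 at 84.8. Those of wild-type gated D9 summed to 184 CPM, so the levels of these cells overlapped with those of others. Ifit1 had 237 counts in A9, 15 in A10, 5 in C2 and 4 in B12, and Rtp4 had 316, 25, 14 and 8. G3 is a cell rich in border markers, with Ifi27l2a at 448 CPM and Rtp4 at 226. D1 had 6 effectors, with Rtp4 at 235 CPM. A10 and C2 lay in one set of wells that share rare genes, and D1 and D7 each in a different set of 4.

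In knockout unselected cells, the cell in well F1 had 7 effectors, with Ifit1 at 654 CPM, Rtp4 at 350, Oas1a at 168 and Isg15 at 87.6. It holds all of the Ifit1 and Ifitm3 counts of its group. In wild-type gated cells, B3 had Ifit2 at 326 CPM and Ifit1 at 315. C6 had Rtp4 at 856 CPM, Herc6 at 554 and Oasl2 at 480. The cells in D8, D9 and F1 had the same 6 effectors (Ifit1, Irf7, Oasl2, Usp18, Ifi27l2a and Rtp4), with Rtp4 at 105, 77.5 and 397 CPM, and all lay in one set of wells that share rare genes. Wild-type gated B3 and knockout unselected F1 each lay in a set of 2 such wells.

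**Figure D5:**
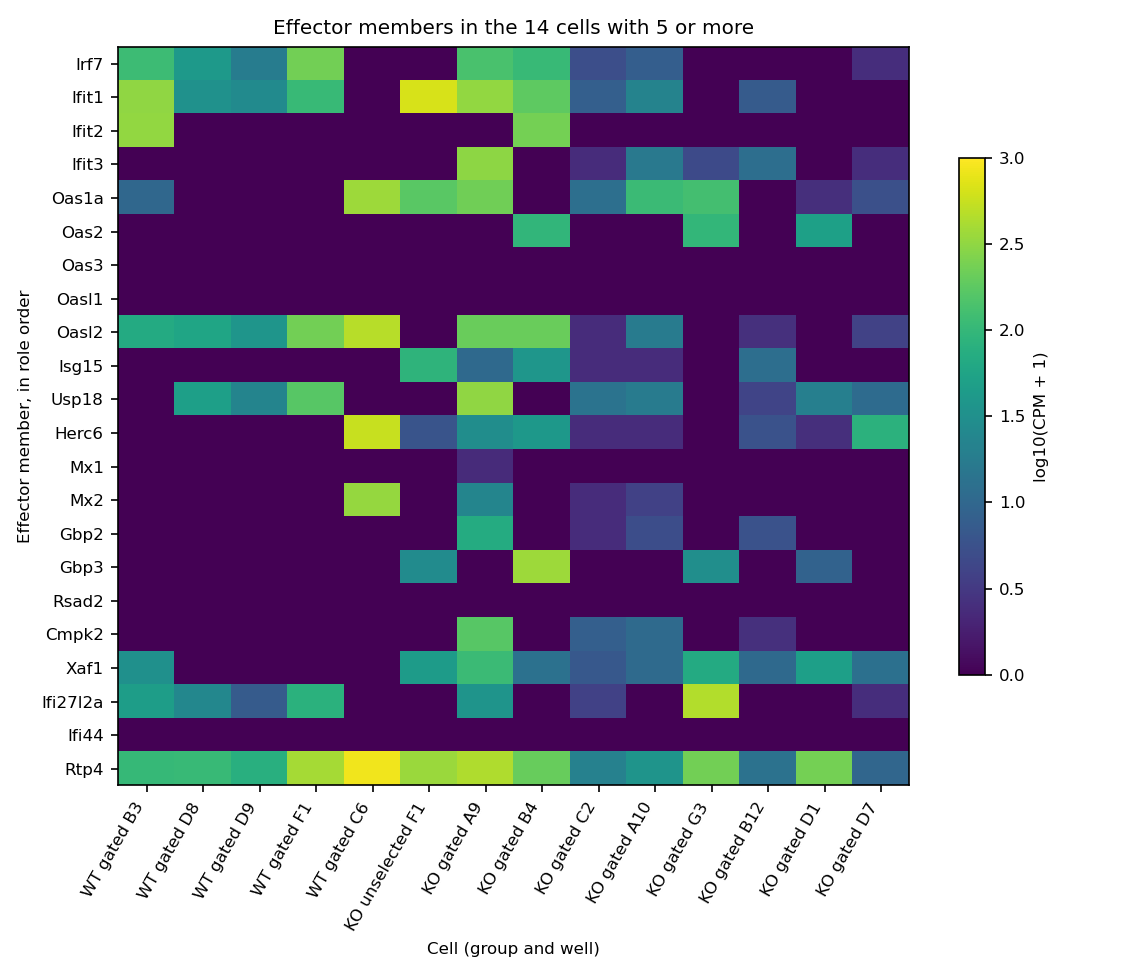
Level of the 22 effectors, as log10(CPM + 1) before thinning, in the 14 cells with 5 or more of them, with 1 column per cell named by group and well. Rtp4 has counts in all 14 cells, and the columns of wells A10, B12, C2 and D7 show low levels of most effectors. Exceptions are Oas1a in A10 (110 CPM) and Herc6 in D7 (84.8 CPM).

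Rtp4 was the effector these cells had most in common, and it is also 1 of the 22 by which they were chosen. After thinning it was detected in 13 of the 14 cells. Before thinning it had counts in all 14, against 55 of all 334 cells, and reached 100 CPM or more in 9. Oasl2 had counts in 11 of the 14 (22 of all 334), and Ifit1 and Xaf1 in 10 each (13 and 50 of all 334). Oasl1, Oas3, Rsad2 and Ifi44 had none in any of the 14 cells. Of 231 pairs of effectors, 100 were never detected in the same cell and 42 were in 5 or more cells. The 100 include every pair with Oasl1, which had no counts and so could not pair. Oas3, Rsad2 and Ifi44 were detected in 2 cells each and Mx1 in 3. The number of pairs to be expected from genes this rare was not computed. Ifit1 was detected with Rtp4 in 9 cells, which is 9 of its 10 cells and 9 of the 36 cells with Rtp4.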

How the data were processed

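The data are raw read counts for each gene and cell, as the authors deposited them. Trim Galore 0.4.3, STAR 2.5.3a, Picard, HTSeq and the mm10 build are named per the submitters' processing notes; the annotation and strand setting are not named there. Groups, wells and quality calls came from the labels. The 92 spike-in RNAs (3.56% of counts in passing cells) were kept out of library sizes. Gene counts per passing cell ran from 157653 to 1051282, and amplified reads carried no molecular identifiers, so all intervals cover counting error only. Doublets were not called, since each well was sorted to hold 1 cell.

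For each gene, the counts of a group's passing cells were added up and expressed as CPM. Higher or lower means a difference of at least 2-fold on log2(CPM + 1), agreeing in direction with the mean over cells, at 5 CPM or more in either group; this understates differences of low genes. No model was fitted and no p-value computed, since each group is 1 sample. Shares used cells thinned to 100000 gene counts and 1 or more counts. Gene coordinates are from GENCODE M21. Every member is named in role order, with the level in every group for those at 20 CPM or more; from the wider list the interferon genes, receptor kinases and up to 4 genes per comparison by size were named, and 1 gene is not reported here. The members and lists were chosen with earlier results of these data known. Alternatives were other scalings, pseudocounts, filters and cell sets; leaving out wells that share rare genes and cells rich in border markers was added after seeing the data. Python 3.11.15 (numpy 2.4.6, pandas 2.3.3, scipy 1.17.1) was used, with edgeR 4.0.16 in R 4.3.3 for TMM factors alone. The procedure was tested on simulated cells, with Poisson counts drawn around the pooled mean of each gene. Such cells hold no genes carried by few cells, so the test does not show how the 2-fold rule behaves for those.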

Additional observations from a re-analysis of the deposited data

Results flagged for a closer look

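The genotype difference of 2 members went in opposite directions in unselected and gated cells; whether the differences differ was not tested. For Oas2 the log2 difference (knockout minus wild type) was 2.71 in unselected and -2.04 in gated cells, which is -4.75 as gated minus unselected; 98.4% of its counts in knockout unselected cells came from 1 cell. For Ifitm3 the unselected value was -1.33 and the gated value 1.16, a difference of 2.498. Without the cell with the most counts the gated value was 0.15, and without the 3 cells rich in border markers it was -0.80.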

How the results depend on the processing

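Of 172 alternative values of the main results, 143 stayed within the limits set, 27 moved and 2 reversed. A count had to stay within 1.5 times, with higher and lower calls added together, so its direction was not checked. Splits that changed direction could therefore pass. With spike-in scaling, higher and lower went from 7 and 7 to 20 and 0 for the gate in knockout. Between genotypes they went from 8 and 2 to 3 and 5 in unselected cells, and from 4 and 8 to 9 and 6 in gated cells. Of 660 values of named members, 347 kept within their limits, 304 moved and 9 reversed. The number of members past 2-fold (8 higher and 0 lower) for the gate in wild type was 14 with spike-in scaling, 3 at a minimum of 20 CPM, 13 with all cells and 14 in cells with 2000 to 4000 detected genes. In that order, the shares of all genes higher and lower were 24.3% and 12.2%, 10.2% and 18.1%, 14.2% and 20.3%, and 21.4% and 22.6%. For the gate in knockout (14) it was 8 with a pseudocount of 5 CPM and 9 at 20 CPM. Between genotypes the number of members was 2 at 20 CPM in unselected cells (10), and 7 with a pseudocount of 5 CPM and 4 at 20 CPM in gated cells (12). In that order, the shares of all genes were 11.6% and 9.33%, 6.64% and 7.68%, and 6.31% and 8.26%. Spike-in scaling turned the member median of the gate in knockout to 1.26 and the median difference between the gate differences from -0.55 to 0.28. It turned Stat2 (0.26), Gbp3 (0.14), Dhx58 (0.10) and Herc6 (0.17) in that gate comparison. In cells with 2000 to 4000 detected genes, Dhx58 for that gate was 0.29, and between genotypes in unselected cells Mx2 was 0.049 and Ddx58 -0.023. Between genotypes in gated cells Gbp2 was -0.31 with all cells and Ifitm3 -0.80 without border-marker cells.

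Cells with 5 or more effectors numbered 8 (wild-type gated) and 13 (knockout gated) without thinning, 4 (knockout gated) at 50000 gene counts and 3 at 5 or more thinned counts. With 2000 to 4000 detected genes they numbered 1 in wild-type gated cells, 0 in unselected knockout cells and 2 in gated knockout cells, and with 1 cell per set of wells 1 and 5 in the 2 gated groups. Counting all 37 members gave 30, 59, 20 and 61 cells. The median share of cells with a member (3.85%, 8.89%, 4.44% and 14.5%) was 2.56%, 5.56%, 2.22% and 6.58% at 5 or more thinned counts, and 2.56% in wild-type unselected cells with 1 cell per set. The causes were not tested. No paired analysis was possible because each group is 1 sample on 1 plate, and well numbers only name cells. Members at a few CPM rest on few cells, and a share of 0 is limited by the number of cells.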
